A study of Rattus norvegicus with 6 samples.

Results

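The miRNAs described here come from hairpins at imprinted loci outside the large Dlk1-Dio3 cluster, namely miR-483 of the Igf2 locus, miR-675 of the H19 locus, miR-335 of the Mest locus, and miR-296 and miR-298 of the Gnas locus. These hairpins were chosen with earlier results of these data known. Members were then taken by hairpin name, with any arm, which gave 7 of the 562 mature rat miRNAs of the libraries. These were rno-miR-483-5p, rno-miR-483-3p, rno-miR-335, rno-miR-296-5p, rno-miR-296-3p, rno-miR-298-5p and rno-miR-298-3p. miR-675 was not analysed here, with 0 arms among the 562 rows. Small RNA of the hypothalamic arcuate nucleus (ARC) of Sprague-Dawley rats aged 8-10 weeks, male as far as the methods tell, was sequenced on Day 14 after surgery in 6 libraries. In 3 of them the rats had received a chronic constriction injury of the left infraorbital nerve (CCI-ION), in which loose silk ligatures are tied around a branch of the trigeminal nerve to produce neuropathic pain. In the other 3 libraries, from sham-operated rats, the nerve was exposed without being ligated. The comparison addressed which miRNAs of the ARC change with nerve injury, at 1 time point. The ARC was dissected from brain slices, so that the libraries hold every cell type of that tissue.

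At an imprinted locus a gene is transcribed mainly from the copy inherited from 1 parent. miR-483 is processed from an intron of Igf2, the gene of insulin-like growth factor 2, and miR-335 from an intron of Mest, both of them active on the paternal copy, whereas miR-675 is cut from the H19 transcript of the maternal copy. miR-296 and miR-298 are neighbours upstream of Gnas, the gene of the stimulatory G protein alpha subunit, and in the mouse they derive from a paternally expressed antisense transcript. Each hairpin can give a mature miRNA from its 5p and its 3p arm, and a mature miRNA recognises its targets largely through its seed, bases 2 to 8 from the 5′ end. Igf2 in the adult brain is known mainly from choroid plexus, meninges and blood vessels.

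The mature sequences below show how unlike the arms of miR-483 are, and what distinguishes the members from each other. They are from RefSeq, build GRCr8, which held 6 of the 7 members and 512 of the 562 miRNAs, and capitals mark the seed.

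rno-miR-483-5p: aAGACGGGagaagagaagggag

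rno-miR-483-3p: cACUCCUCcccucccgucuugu

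rno-miR-296-5p: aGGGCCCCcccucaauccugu

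rno-miR-296-3p: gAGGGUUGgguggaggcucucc

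rno-miR-298-5p: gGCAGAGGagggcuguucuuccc

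rno-miR-298-3p: aGGAACUAgccuucucucugcu

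In GRCr8 the miR-483 hairpin is at chr1:207247859-207247931 on the minus strand, inside the annotated span of Igf2. The miR-296 hairpin, at chr3:183470069-183470146, and the miR-298 hairpin, at chr3:183470522-183470603, are both on the minus strand, lie 375 bases apart and have Npepl1 and Gnas as the nearest protein-coding genes on either side. The submitters' processing notes name build rn6, and the data carry no coordinates of their own. miR-483-5p had purines at 21 of its 22 bases, the highest purine share (95.5%) of the 512 miRNAs with a sequence, whose median was 47.8%. miR-483-3p had purines at 3 of 22 bases (13.6%), and just 1 of the 512 had a lower share. The GC content of the 6 members was between 50% and 68.2%, against a median of 47.8% over the 512, so that all 6 were above it. Each of the 6 had a seed of its own, and 0 other miRNAs of the RefSeq table shared any of them, so no other rat miRNA in that table has the same seed match as a member.

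Values are normalized counts, that is, reads of a miRNA divided by a size factor of its library. Reads were recovered from these values, and over the 562 miRNAs they summed to between 11115049 and 14313839 in sham libraries. In CCI-ION libraries they summed to between 8628309 and 11297551. The smallest value above 0 was 5 reads in each library, and whether miRNAs with fewer reads were set to 0 is not given in the sources used here. Where a group's 3 values are listed, they follow the replicate numbers 1, 2 and 3. All 7 members were above 0 in all 6 libraries and passed the filter of a mean of at least 1, but their depth differed widely, from 26 to 97 reads for miR-483-5p and from 4895 to 7009 reads for miR-298-5p. Neuronal miRNAs were abundant, with 13 of them summing to between 542766 and 900254 normalized counts per library. Differences were tested with limma on log2(normalized count + 1), and p-values were adjusted over all 555 miRNAs tested. The study gives more rats per group than there are libraries for its display of ARC miRNAs, and how rats were assigned to libraries is not given in the sources used here. The p-values therefore measure the spread between libraries, and with 3 libraries against 3 an exact permutation test cannot give a two-sided p below 0.1.

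rno-miR-483-5p was the member that rose, to 2.44 times its sham mean. The other arm of its hairpin, miR-483-3p, had a higher mean in CCI-ION rats but overlapping groups. Both arms of miR-298, the most abundant hairpin of the set, had log2 fold changes near 0 (-0.05 and 0.06), whereas miR-296-5p from the neighbouring hairpin had lower values in all 3 CCI-ION libraries. miR-335 varied most between libraries of 1 group. In bulk tissue more cells of a type and more RNA per cell cannot be told apart. In all, 1 of the 7 members was called higher, against 3.42% of all miRNAs tested, and 0 were called lower, so that 1 of 7 was called in either direction against 6.85% of all miRNAs tested (limma with Benjamini-Hochberg adjustment, adjusted p under 0.05). At an unadjusted p under 0.05, 2 of the 7 members and 183 of all 555 miRNAs remained. The groups did not overlap for 2 of the 7 members, miR-483-5p and miR-296-5p, a share of 28.6% that was below the 40.7% of all miRNAs tested. The median log2 fold change was 0.06 for the 7 members and -0.01 for all miRNAs tested.

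**Figure D1:**
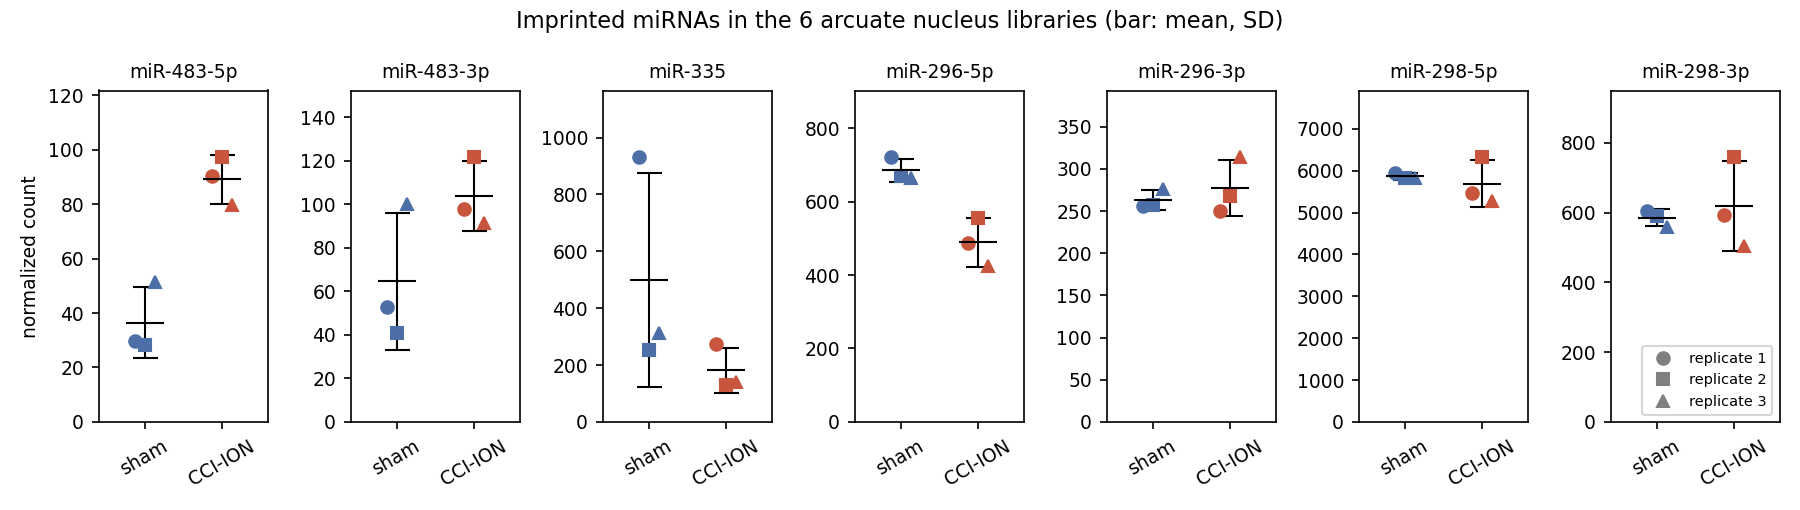
Normalized counts (vertical axes, from 0, 1 scale per panel) of the 7 members in 3 sham (blue) and 3 CCI-ION (red) libraries, with a marker shape per replicate and bars for the mean and SD. The groups are apart for miR-483-5p and miR-296-5p, and sham replicate 1 stands alone at 933 for miR-335.

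miR-483-5p, which is known for raising the transcription of its own host gene Igf2 in tumour cells, had 29.7, 28.3 and 51.4 normalized counts across the sham libraries. After CCI-ION its values were 90.3, 97.4 and 79.7. The highest sham library thus stayed below the lowest CCI-ION library, and the 3 CCI-ION libraries lay closer together than the 3 sham libraries, with a coefficient of variation of 10.0% against 35.6%. The log2 fold change was 1.31 with a standard error of 0.26 and a 95% interval from 0.68 to 1.95 (adjusted p = 0.0450 from limma), which ranked 12 from the highest among the 555 miRNAs tested. In reads, the sham libraries had 26, 34 and 61 and the CCI-ION libraries 97, 80 and 74. Counting error alone is sizeable at this depth, the exact Poisson 95% interval of the 61 reads of sham replicate 3 being 46.7 to 78.4, and it covers counting error only. The call was close to the threshold: it was kept without sham replicate 3 (log2 fold change 1.58, adjusted p = 0.0257) and lost without any other library. Adjusted p from limma was 0.116 without sham replicate 1, 0.148 without sham replicate 2, 0.0875 without CCI-ION replicate 1, 0.0760 without CCI-ION replicate 2 and 0.103 without CCI-ION replicate 3, with log2 fold changes from 1.16 to 1.39. It was also lost with a pseudocount of 0.1 in place of 1 (adjusted p = 0.0533 from limma) and kept with each of 3 other scalings of the libraries.

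miR-483-3p, known as a repressor of the proapoptotic gene Bbc3, showed 52.6, 40.7 and 100.3 normalized counts across the sham libraries and 97.7, 121.8 and 91.5 after nerve injury. Sham replicate 3 lay above 2 of the 3 CCI-ION libraries, so the groups overlapped. The log2 fold change of 0.77 had a 95% interval from -0.11 to 1.64 (adjusted p = 0.186 from limma), which spans both no change and the change seen for the 5p arm. Sham replicate 3 was the highest sham library for both arms, and without it the log2 fold change of miR-483-3p was 1.135 (adjusted p = 0.0880 from limma). Without sham replicate 2, the lowest sham library for both arms, it was 0.50 (adjusted p = 0.398 from limma). Summed over both arms, miR-483 had 82.3, 69.0 and 151.7 normalized counts across the sham libraries and 187.9, 219.2 and 171.2 after nerve injury. The groups of the summed arms did not overlap. Their log2 fold change of 1.00, with a standard error of 0.31, missed the threshold over 365 hairpin names (adjusted p = 0.0927 from limma). Of the hairpin sums of miR-483, miR-335, miR-296 and miR-298, 0 passed, against 2.47% of all 365.

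The 3p arm of miR-483 had more reads than the 5p arm in all 6 libraries, but by different margins. The ratio of 5p to 3p reads was 0.565, 0.694 and 0.513 across the sham libraries and 0.924, 0.800 and 0.871 after nerve injury. Every CCI-ION library therefore stood nearer to equal arms than any sham library, and this ratio does not depend on how libraries are scaled. It does carry counting error, as the sham ratios rest on 26 and 46, 34 and 49, and 61 and 119 reads. In sham replicate 2 the Poisson 95% intervals were 23.55 to 47.51 reads for the 5p arm and 36.25 to 64.78 for the 3p arm. The difference in the log2 ratio was 0.55 with a 95% interval from 0.15 to 0.94, and it missed the threshold over the 174 hairpins with both arms (adjusted p = 0.0782 from limma).

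miR-296-5p, known in endothelium as a promoter of vessel growth, had 722, 670.1 and 665 normalized counts across the sham libraries. After CCI-ION its values were 488, 556 and 424. All CCI-ION libraries were below all sham libraries, and the CCI-ION mean was 71.4% of the sham mean. The log2 fold change of -0.49 had a 95% interval from -0.84 to -0.15 and missed the threshold (adjusted p = 0.0849 from limma), except with upper-quartile scaling, where it was -0.74 with an adjusted p of 0.0249 while the median of all miRNAs moved to -0.26. With total-count scaling, where that median was 0.17, it was -0.29 (adjusted p = 0.182 from limma). miR-296-3p, the rarer arm, had 256, 257 and 276 normalized counts across the sham libraries and 250.3, 268 and 314 after nerve injury. Its groups overlapped, and its log2 fold change was 0.07 (95% interval from -0.25 to 0.39), turning to -0.18 with upper-quartile scaling and -0.02 without CCI-ION replicate 3.

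The arms of miR-296 had read numbers nearer to each other in every CCI-ION library than in any sham library. The ratio of 5p to 3p reads was 2.82, 2.61 and 2.41 across the sham libraries and 1.95, 2.08 and 1.35 after nerve injury. CCI-ION replicate 3 was well below the other CCI-ION libraries. The difference in the log2 ratio, -0.56 with a 95% interval from -1.07 to -0.06, missed the threshold (adjusted p = 0.110 from limma) and was -0.37 without CCI-ION replicate 3. The arm ratios of miR-483 and miR-296 had groups that did not overlap and that of miR-298 had groups that did, so 2 of 3 member hairpins were apart, against 43.1% of the 174 hairpins. Of these 3 arm ratios 0 were called, against 14.9% of the 174.

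miR-298-5p, known in mouse cells as a repressor of the beta-secretase Bace1, was the most abundant member in every library. It had 5953, 5827 and 5814 normalized counts across the sham libraries and 5476, 6332 and 5269.5 after nerve injury. The sham libraries agreed to within a coefficient of variation of 1.31%, and the CCI-ION libraries lay on both sides of them with 9.90%. The log2 fold change of -0.05 had a 95% interval from -0.34 to 0.24 (adjusted p = 0.805 from limma), and its sign turned to 0.15 with total-count scaling, where the median of all miRNAs was 0.17. miR-298-3p had 606, 590.3 and 559 normalized counts across the sham libraries and 594, 759.8 and 505 after nerve injury. Again CCI-ION replicates 2 and 3 were the extremes, and the log2 fold change of 0.06 had a 95% interval from -0.37 to 0.50, with a sign that turned to -0.18 with upper-quartile scaling and to -0.09 without CCI-ION replicate 2. The ratio of 5p to 3p reads of miR-298 was 10.0 ± 0.318 without injury and 9.33 ± 1.06 with it (SD, 3 libraries each). The CCI-ION libraries lay on both sides of the sham libraries, and the difference was larger than the SD of the sham libraries and smaller than that of the CCI-ION libraries.

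The neighbouring hairpins miR-296 and miR-298 were also set against each other, which removes the scaling of libraries. Reads of miR-296-5p per read of miR-298-5p were 0.121, 0.115 and 0.114 across the sham libraries and 0.0890, 0.0879 and 0.0805 after nerve injury. The groups of this ratio were apart, and the difference of the log2 ratio was -0.45 (exact permutation test, two-sided p = 0.1, the smallest that the design allows), with values from -0.47 to -0.40 when any 1 library was left out. In the 3p arms the same ratio was 0.451 ± 0.0385 without injury and 0.466 ± 0.140 with it (SD, 3 libraries each), and the groups overlapped. Set against the Igf2 locus, the reads of miR-296 and miR-298 together were 91.6, 106.4 and 48.2 times those of miR-483 across the sham libraries and 36.2, 36.1 and 38.0 times after nerve injury. This proportion was thus nearly equal in the 3 CCI-ION libraries and higher in each sham library, with a difference of -1.07 on the log2 scale (exact permutation test, two-sided p = 0.1) that ranged from -1.41 to -0.85 with 1 library left out.

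**Figure D2:**
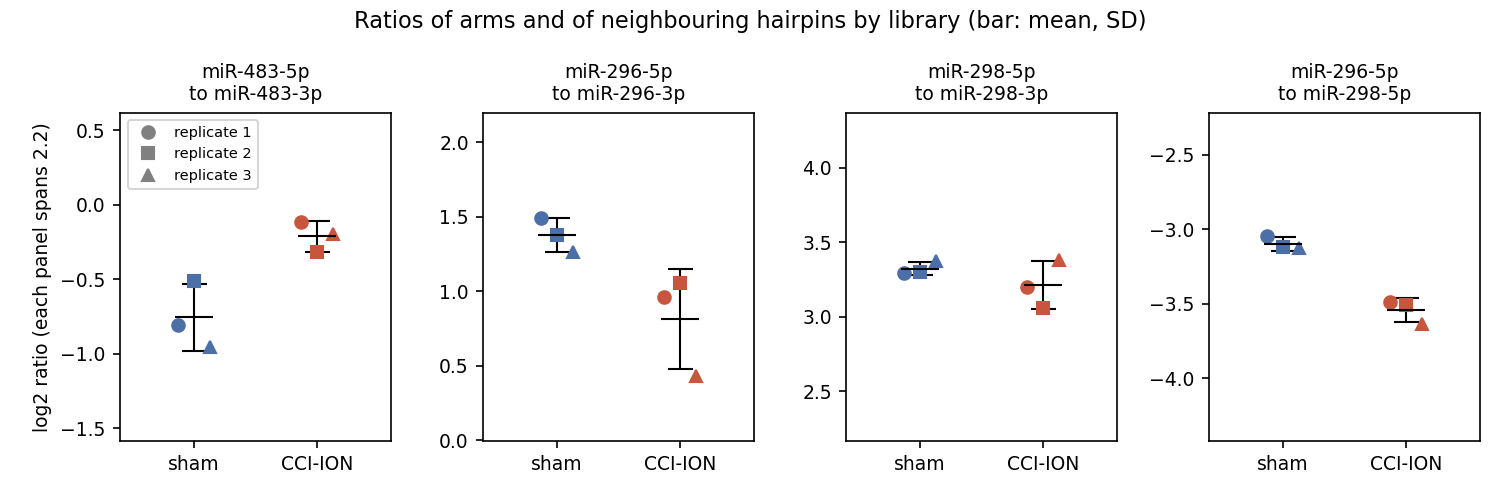
Log2 ratios (vertical axes, each panel spanning 2.2) of the 5p to the 3p arm of 3 hairpins and of miR-296-5p to miR-298-5p in 3 sham (blue) and 3 CCI-ION (red) libraries, with a marker shape per replicate and bars for the mean and SD. The groups are apart in all panels but that of miR-298-5p to miR-298-3p.

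miR-335, known as a suppressor of metastasis that targets Sox4, was listed once, with no arm in its name. It had 933, 254 and 312 normalized counts across the sham libraries and 273, 132 and 140 after nerve injury. Sham replicate 1 had 2.99 times the next highest sham library, and CCI-ION replicate 1 lay between the other 2 sham libraries, so the groups overlapped. The log2 fold change of -1.29 had a 95% interval from -2.72 to 0.14 (adjusted p = 0.178 from limma), and without sham replicate 1 it was -0.71 (adjusted p = 0.294 from limma). Of 457 miRNAs with at least 10 reads in every library, 4 had at least 2 times as many normalized counts in sham replicate 1 as in either other sham library, and miR-335 ranked 3 among them, after miR-3473 (7.71 times) and miR-141-3p (3.57 times). The standard deviation of miR-335 between sham libraries, 1.01 on the log2 scale, ranked 41 of the 555 miRNAs tested.

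**Figure D3:**
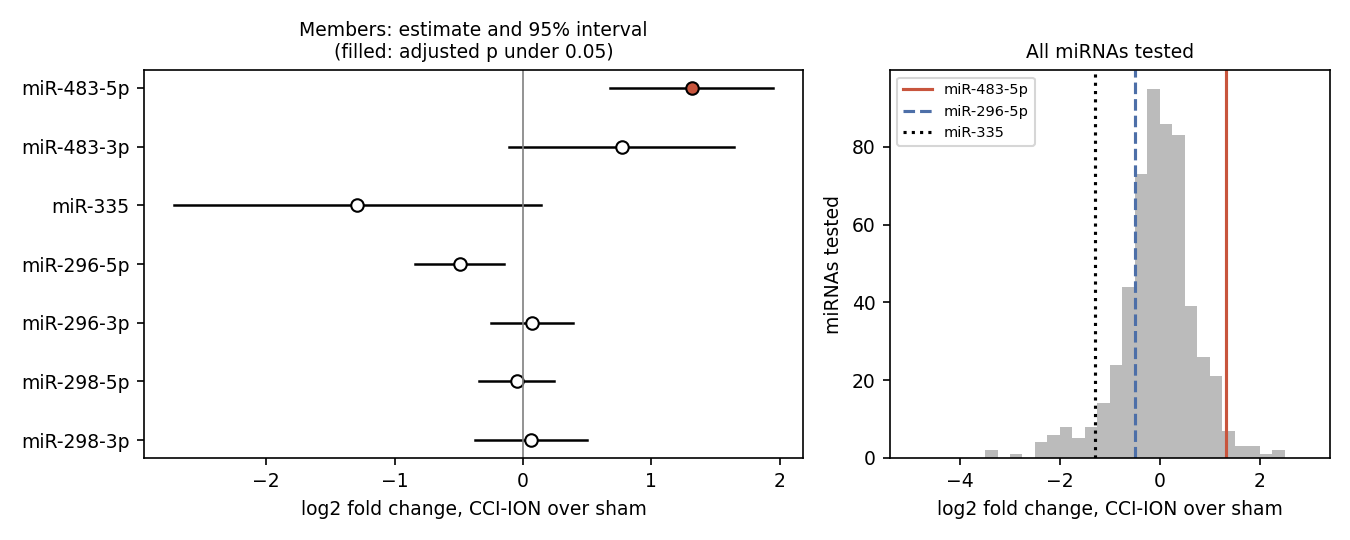
Left, log2 fold change of CCI-ION over sham for the 7 members with 95% intervals from limma, filled where the adjusted p was under 0.05. Right, the number of miRNAs by log2 fold change for all 555 tested, with lines at miR-483-5p (1.31), miR-296-5p (-0.49) and miR-335 (-1.29). The intervals of miR-483-5p and miR-296-5p do not reach 0, and that of miR-335 is the widest.

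Levels of the members are set side by side as normalized counts without a length correction, since the 6 with a sequence are between 21 and 23 bases long. In sham rats the order of the means was miR-298-5p (5865), miR-296-5p (686), miR-298-3p (585), miR-335 (500), miR-296-3p (263), miR-483-3p (64.5) and miR-483-5p (36.5). These means ranked from 104 for miR-298-5p to 420 for miR-483-5p among the 562 miRNAs. miR-335 could not be separated from either of its neighbours in this order, because its range covered both, and the ranges of the arms of miR-483 overlapped as well, although the 3p arm was the higher one in each library. In CCI-ION rats the order was miR-298-5p (5692), miR-298-3p (619), miR-296-5p (489), miR-296-3p (278), miR-335 (181), miR-483-3p (103.7) and miR-483-5p (89.1). Here miR-298-3p and miR-296-5p overlapped, as did miR-296-3p and miR-335, and the arms of miR-483. Between different miRNAs such levels also depend on how well each sequence enters a library, for which no value is at hand.

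Likeness of pattern was measured as Pearson's r of log2(normalized count + 1) over the 6 libraries, which share 2 groups and their size factors, and it is given as a description among 457 miRNAs with at least 10 reads in every library. For miR-483-5p, added to the rule after its values were seen because its hairpin's other arm is the more abundant, the likest miRNAs were miR-145-5p (r = 0.99), miR-223-3p (r = 0.96) and miR-150-3p (r = 0.96). miR-145-5p, typical of vascular smooth muscle, had 2611, 2279 and 3283 normalized counts across the sham libraries and 4659.5, 5110.5 and 4772 after nerve injury. Its lowest and highest libraries were those of miR-483-5p. For miR-483-5p, sham replicates 1 and 2 rest on 26 and 34 reads, so their order lies within counting error. The same holds for CCI-ION replicates 1 and 2 (97 and 80 reads). miR-143-3p, also a vessel-wall miRNA, had 32179, 40854 and 47797 normalized counts across the sham libraries and 77023, 89533 and 91863 after nerve injury. Its lowest library was sham replicate 1 and its highest CCI-ION replicate 3, the lowest CCI-ION library of miR-483-5p. After subtracting the group means the r with miR-483-5p was 0.928 for miR-145-5p, 0.769 for miR-223-3p and 0.766 for miR-150-3p. That of miR-145-5p with miR-483-3p was 0.985. Each of these miRNAs was picked for its r over the same 6 libraries, so such values are partly set by that choice. How many other candidates reach them after subtraction was not computed. Without subtracting the group means, 26 of 455 candidates had an r of at least 0.9 with miR-483-5p, and 37 of 455 with miR-296-5p. The likest for miR-483-3p were miR-503-3p (r = 0.91), miR-145-5p (r = 0.90) and miR-10b-5p (r = 0.90). For miR-335 they were miR-324-3p (r = 0.995), miR-421-3p (r = 0.91) and miR-872-5p (r = 0.90), each of them highest in sham replicate 1. For miR-296-5p they were miR-191a-5p (r = 0.99), miR-328a-3p (r = 0.99) and miR-15b-3p (r = 0.98), and for miR-298-5p miR-3547 (r = 0.98), miR-125b-1-3p (r = 0.97) and miR-877 (r = 0.96). No member was among the likest of another hairpin's member. The r of miR-296-5p was 0.640 with miR-298-5p and 0.256 with miR-298-3p. After subtracting the group means these were 0.928 and 0.971, whereas miR-296-3p had -0.414 and -0.609 with the same arms of miR-298. Between the arms of 1 hairpin, r was 0.913 for miR-483, 0.869 for miR-298 and -0.572 for miR-296, so that the arms of miR-296 were the pair that ran against each other over the libraries.

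**Figure D4:**
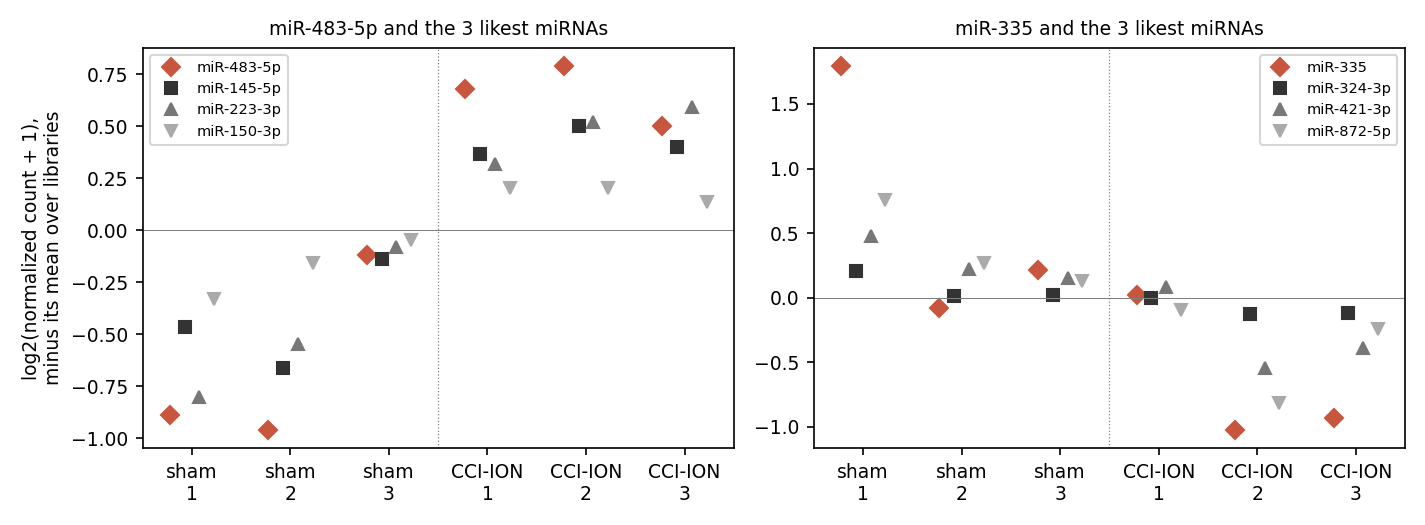
Log2(normalized count + 1) minus its mean over the 6 libraries (vertical axis) for miR-483-5p (left) and miR-335 (right), each with the 3 miRNAs of highest Pearson's r, by library (horizontal axis; replicates have no order). miR-483-5p and miR-145-5p are both lowest in sham replicate 2 and highest in CCI-ION replicate 2, and miR-335 stands out in sham replicate 1. For miR-483-5p, the order of replicates 1 and 2 lies within counting error in both groups.

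Markers of other cell types that the dissected tissue can hold were read beside these values. Of 6 vessel-wall and endothelial miRNAs 2 rose, miR-143-3p by 1.11 and miR-145-5p by 0.85 on the log2 scale (adjusted p of 0.0334 and 0.0450 from limma), against 3.42% of all miRNAs tested that were called higher. The other 4 were not called and ran from -0.91 for miR-126a-5p, whose groups were apart and lower, to 0.69 for miR-143-5p. The list summed to between 80930 and 106733 normalized counts in sham libraries and between 152272 and 166198 in CCI-ION libraries. Of 3 fibroblast and meningeal miRNAs 1 rose, miR-199a-5p, with sums of 5723 to 6368 in sham and 6468 to 10815 in CCI-ION libraries. The 8 choroid plexus and ependymal miRNAs summed to between 16128 and 18771 in sham and between 20981 and 28797 in CCI-ION libraries with 0 called. Their log2 fold changes ran from -0.63 to 0.57 with a median of 0.18, with groups apart and higher for 2 and apart and lower for 1. The 13 pituitary and epithelial miRNAs summed to between 16306 and 23236 and between 20287 and 51565 with 0 called. Their log2 fold changes ran from -0.67 to 1.54 with a median of 0.89, and 3 had groups apart, all higher. Of all miRNAs tested, 40.7% had groups apart. The 1 liver miRNA, miR-122-5p, had 77.3 to 125.7 normalized counts in sham and 112 to 122 in CCI-ION libraries. Sums overlapped for the 3 erythrocyte miRNAs (2837 to 3798 against 2898 to 3660) and the 4 of skeletal muscle (98.3 to 158 against 102 to 124). Log2 fold changes ran from -1.12 to 1.07 in the erythrocyte list, with groups apart and higher for 1 and lower for 0. In the skeletal muscle list they ran from -1.03 to 0.11, with groups apart and lower for 1 and higher for 0. Each of these lists had 0 called. Of 13 neuronal miRNAs 1 was called lower, miR-124-3p (-0.78 on the log2 scale), and of 5 oligodendrocyte miRNAs 1, miR-338-3p (-1.27), against 6.85% of all miRNAs called in either direction. The median log2 fold change was -0.45 in the neuronal and -0.56 in the oligodendrocyte list. Groups were apart and lower for 6 of the 13 and 3 of the 5, and apart and higher for 1 and 0, against 40.7% of all miRNAs tested with groups apart. Changes reached 0.45 in the neuronal list, for miR-129-5p with groups apart and higher but no call, and 0.58 in the oligodendrocyte list. The lists had sums of 674774 to 900254 against 542766 to 650211 and of 13783 to 19985 against 10568 to 11402. None of the listed markers was at 0 in all libraries. The part of these cell types in the values of miR-483-5p was not tested.

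Other imprinted miRNAs, from lists by hairpin name, are given for comparison. Of 83 miRNAs tested from the Dlk1-Dio3 cluster, whose miRNAs are made from the maternal copy, 0 were called higher and 5 lower (6.02% against 6.85% of all miRNAs tested), with log2 fold changes of -1.23 for miR-369-3p, -0.9998 for miR-487b-5p, -0.93 for miR-433-5p and -0.64 for miR-543-5p, while miR-496-5p was listed at 0 in all CCI-ION libraries. The median of the 83 was -0.14. Of 6 miRNAs tested from hairpins that the mouse carries in its imprinted gene Sfmbt2, 1 was called lower, miR-466c-5p (-0.50 on the log2 scale), and 0 higher, so that 1 of 6 was called against 6.85% of all miRNAs tested. The median of the 6 was 0.82, and the 5 that were not called ran from -0.42 for miR-466b-5p to 2.28 for miR-466c-3p, with groups apart and higher for miR-466b-2-3p and miR-466b-4-3p, whose values were equal. Of the 7, 83 and 6 miRNAs tested in these 3 imprinted sets, 1 was called higher, miR-483-5p, against 3.42% of all miRNAs tested.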

How the data were processed

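Small RNA libraries of 3 sham and 3 CCI-ION samples, grouped by their titles, were analysed from the signal values that the authors deposited, 1 per mature miRNA and library. The submitters' processing notes name cutadapt 1.14, Bowtie 1.1.1 and rn6, while the counting, the miRNA annotation and the normalization are not given in the sources used here. The values were whole multiples of a step per library, the smallest being 5 steps, so they were read as reads over a size factor (0.821 to 1.20) and multiplied back, with a largest distance of 7.01e-04 from a whole number.

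limma 3.58.1 (R 4.3.3) was fitted to log2(normalized count + 1) of all 555 miRNAs with a mean of at least 1, without covariates, and two-sided p-values were adjusted after Benjamini and Hochberg, with calls at an adjusted p under 0.05. The same fit was made on sums over the arms of 365 hairpin names and on log2 ratios of the arms of 174 hairpins with a mean of at least 5 in each arm. Only the arm was removed from a name, so that let-7a and let-7a-1 counted apart, and some names held a single arm. Ratios of single miRNAs were compared by exact permutation of libraries. The fits were tested on simulated data. A count test was planned and left out, because reads could only be recovered from normalized values.

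Named were all members, the 3 likest miRNAs of the more abundant arm of each hairpin, miRNAs sharing a seed, and the extremes among the called miRNAs of the other imprinted lists; other miRNAs were named after their values were seen. The members and lists were chosen with earlier results of these data known. Sequences were matched by name to RefSeq (GRCr8). Reads of sequence variants that the authors' counting merged could not be separated.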

Additional observations from a re-analysis of the deposited data

How the results depend on the processing

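Limits are the 3 libraries per group, the low depth of miR-483 (26 to 119 reads per library and arm), and the lack of a source for the counting. The quasi-likelihood test for counts was not run.

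The median over all miRNAs, -0.01 on the log2 scale, became 0.17 when libraries were scaled to total counts and -0.26 when scaled to upper quartiles. miRNAs called were 19 higher and 19 lower here, 42 and 9 with total counts, 10 and 84 (94 in all) with upper quartiles, and 30 higher without the most abundant miRNA. The log2 fold change of miR-483-5p was 1.51, 1.07 and 1.37 in these 3, each past the threshold. With total counts miR-298-5p turned to 0.15 and its summed arms to 0.17, while miR-296-5p came to -0.29 and its summed arms to -0.11 (-0.31 here). Both values of miR-298 turned without the most abundant miRNA as well, to 0.0047 and 0.0155. With upper quartiles miR-298-3p turned to -0.18 and miR-296-3p to -0.18, and miR-296-5p (-0.74) and its summed arms (-0.56) passed, making 1 member lower. Hairpin sums past the threshold were 9 here, 48 with total counts, 68 with upper quartiles, 28 without the most abundant miRNA, 64 with a mean of at least 10, 37 with 2.5 reads in place of 0 and 66 with an intensity trend, which also let the summed arms of miR-483 pass (1.00). A mean of at least 10 gave 63 miRNAs called and the trend 88. With a pseudocount of 0.1 miR-483-5p (1.34, adjusted p = 0.0533 from limma) did not pass, which left 0 members. The cause of these changes was not tested.

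With the replicate block 3 miRNAs passed, 0 members, 0 hairpin sums and 0 arm ratios, and miR-483-5p kept 1.31 with an adjusted p of 0.128 from limma. Deviations of equally numbered libraries correlated by -0.03, 0.19 and -0.01, and the numbers were not taken as pairs. With 1 library left out, 7 to 42 miRNAs, 0 to 1 members higher, 0 to 33 hairpin sums and 0 to 26 arm ratios passed. Log2 fold changes ranged from 1.16 to 1.58 for miR-483-5p, -0.13 to 0.0058 for miR-298-5p, 0.50 to 1.135 for miR-483-3p, -0.0946 to 0.20 for miR-298-3p, -0.0222 to 0.14 for miR-296-3p and -0.12 to 0.0246 for the summed arms of miR-298. With 1 library left out, 106 values kept their direction and side of the threshold (counts, within 1.5 times), 29 moved, 4 reversed and 5 no longer passed. Under the other alternatives 153 kept them, 28 moved, 6 reversed, 3 newly passed and 2 no longer passed.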
